A study of Mus musculus with 27 samples.

Results

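The genes described here are the 6 named carriers that take bile acids and organic ions from sinusoidal blood into hepatocytes: Slc10a1, Slco1b2, Slco1a1, Slco1a4, Slco2b1 and Slc22a7. They were chosen by symbol, with earlier results of these data known but by no rule on their values, from a table of 21823 protein-coding genes, and all 6 were found and passed the filter on low values. The table gives FPKM, a read count scaled to transcript length and sequencing depth, for 27 RNA-seq libraries made from laser-microdissected liver of WT female C57BL/6 mice (C57BL/6N in the study's methods). Livers came from adult virgin females, called NP for non-pregnant, and from pregnant mice 8 or 16 days post coitum (dpc8 and dpc16), and the labels give no transgene or drug. Zones 1, 2 and 3 of the liver lobule were collected from each stage, with 3 libraries for each of the 9 combinations of stage and zone. The study calls these independent experiments and says in general terms that its experiments used different mice, but the labels tie no library to a mouse, so that the p-values measure only the spread between these libraries.

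Hepatocytes clear bile acids, bilirubin, hormones, toxins and many drugs from portal blood through carriers in their sinusoidal membrane. Slc10a1 encodes NTCP, which takes up conjugated bile acids together with sodium. Slco1b2, Slco1a1, Slco1a4 and Slco2b1 encode organic anion transporting polypeptides (OATPs), which carry bile acids, conjugated steroids, bilirubin and drugs without sodium, and Slc22a7 encodes the organic anion transporter OAT2. Blood enters the lobule at the portal vein, beside zone 1, and leaves at the central vein, beside zone 3, and many hepatocyte genes differ in level along this path.

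On mm10, Slco1b2 (ENSMUSG00000030236.10) lies at chr6:141629518-141686646 on the plus strand, and Slco1a4 (ENSMUSG00000030237.14, chr6:141805440-141856199) and Slco1a1 (ENSMUSG00000041698.11, chr6:141907282-141946962) follow on the minus strand of the same OATP gene cluster. The other genes of the cluster with OATP symbols, Slco1c1, Slco1a6 and Slco1a5, reached at most 0.0669, 0.0181 and 0.758 FPKM in any library. Gm5724 and Gm6614, which also lie there, reached 0.297 and 0 FPKM, so that the cluster's signal in these livers came almost wholly from the 3 members. Slc10a1 (ENSMUSG00000021135.8) lies at chr12:80953183-80968705, Slco2b1 (ENSMUSG00000030737.17) at chr7:99657804-99711340 and Slc22a7 (ENSMUSG00000067144.7) at chr17:46432183-46438457, all 3 on the minus strand. Of the 86-base windows, the length of a read here, in the longest coding transcript of each gene, none in Slc10a1, Slco1b2 or Slc22a7 also occurred in another gene. The share was 1.23% in Slco1a1 and 1.47% in Slco1a4, which share short stretches with each other and with their neighbours, and 6.40% in Slco2b1, which shares them with Gm15635.

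Promoters of 4 members are shown: those of Slco1b2, Slc10a1 and Slco1a4, which fell in late pregnancy, and that of Slco1a1, from the same cluster as Slco1b2 and Slco1a4, which did not pass the test. The sequences are the 250 bases before the transcription start, from RefSeq on GRCm38.p6, 5′ to 3′ on the gene's strand, and capitals mark matches to the motifs searched. The windows are chr6:141629268-141629517 on the plus strand for Slco1b2, chr12:80968706-80968955 on the minus strand for Slc10a1, chr6:141856221-141856470 on the minus strand for Slco1a4 and chr6:141946963-141947212 on the minus strand for Slco1a1.
Slco1b2: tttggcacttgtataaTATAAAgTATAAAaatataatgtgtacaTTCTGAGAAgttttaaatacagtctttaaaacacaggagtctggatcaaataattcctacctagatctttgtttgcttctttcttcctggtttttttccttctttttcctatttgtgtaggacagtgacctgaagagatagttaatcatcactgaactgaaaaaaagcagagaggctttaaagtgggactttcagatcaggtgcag
Slc10a1: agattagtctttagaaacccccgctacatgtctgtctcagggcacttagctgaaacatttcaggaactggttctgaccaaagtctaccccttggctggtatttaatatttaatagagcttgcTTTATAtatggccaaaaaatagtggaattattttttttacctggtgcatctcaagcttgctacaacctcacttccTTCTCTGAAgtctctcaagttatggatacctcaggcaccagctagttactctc
Slco1a4: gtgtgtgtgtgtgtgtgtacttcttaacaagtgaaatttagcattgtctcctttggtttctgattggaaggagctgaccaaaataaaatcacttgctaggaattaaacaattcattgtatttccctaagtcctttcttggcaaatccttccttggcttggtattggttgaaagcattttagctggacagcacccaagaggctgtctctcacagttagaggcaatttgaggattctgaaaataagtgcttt
Slco1a1: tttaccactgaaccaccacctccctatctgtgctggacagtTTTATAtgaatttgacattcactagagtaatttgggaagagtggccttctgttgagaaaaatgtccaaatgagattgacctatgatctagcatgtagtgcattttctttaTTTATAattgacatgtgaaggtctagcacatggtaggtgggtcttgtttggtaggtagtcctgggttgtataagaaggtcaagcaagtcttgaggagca

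Motifs were searched on both strands in the 5 of 6 members that had a promoter in the RefSeq table. The GAS letters TTCNNNGAA, a sequence bound by STAT factors, occurred in Slco1b2, where they begin 206 bases before the start, and in Slc10a1, at 53 bases, against 7.02% of all 32851 promoter windows of 250 bases. The letters TATAAA or their reverse complement occurred in Slco1b2, Slc10a1 and Slco1a1 and in 12.4% of all windows. CTTTGAT, which TCF/LEF factors bind, occurred in none of the 5 and in 3.21% of all windows. No match to any of these motifs was found in Slco1a4, which also fell, or in Slco2b1. A match of letters is a description and was not tested for binding.

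Depth could only be estimated, from the steps between low FPKM values, at 7.54 to 33.36 M mapped reads a library, and 1 read on a kilobase of effective length then corresponded to 0.0300 to 0.133 FPKM. The levels of the members lay far above this, apart from Slco1a1 in zone 1 and Slc22a7 in NP zone 3. Hepatocyte markers averaged 10.5 to 12.7 on the log2(FPKM + 1) scale in every library. Periportal markers averaged 8.08 to 9.13 in zone 1 and 2.39 to 4.75 in zone 3, and pericentral markers 2.71 to 3.32 in zone 1 and 7.03 to 7.95 in zone 3, so that the labelled zones matched their markers. In 6 libraries the 4 Y-linked genes searched summed to 7.92 to 23.2 FPKM, although the labels give females, against at most 2.97 FPKM in the other 21. The same 6 libraries had the highest levels of 16 connective tissue and smooth muscle genes, with mean log2 levels of 4.78 to 6.15 against 1.40 to 3.94, and hepatocyte markers at 10.5 to 11.3 against 11.2 to 12.7. They are NP zone 1 number 1, NP zone 3 number 2, dpc8 zone 1 number 1, dpc8 zone 2 number 2, dpc16 zone 2 number 3 and dpc16 zone 3 number 3, and calls of the 6 members that change without them are given both ways, while the source of the Y-linked RNA was not tested.

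Slco1b2 and Slco1a1 were the 2 members with higher RNA near the central vein at every stage. Slco1b2 encodes the main liver OATP of the mouse, the counterpart of human OATP1B1 and OATP1B3, and carries bile acids, conjugated bilirubin and statins. In NP zone 1 its 3 libraries gave 119.7, 226 and 207 FPKM, in zone 2 they gave 391, 345 and 362 FPKM, and in zone 3 they gave 709, 592 and 1222 FPKM. The 3 zones of NP livers did not overlap. At dpc8 the values were 118.7, 214 and 206 FPKM in zone 1, 471, 288 and 431 FPKM in zone 2 and 799.8, 764 and 778 FPKM in zone 3, again without overlap. At dpc16 they were 39.1, 25.5 and 42.3 FPKM in zone 1, 173, 109.8 and 58.9 FPKM in zone 2 and 521, 454 and 240.0 FPKM in zone 3. Each step from zone 1 to zone 3 thus separated all libraries at all 3 stages. The zone 1 mean of Slco1b2 was 4.56-fold below that of zone 3 in NP, 4.35-fold at dpc8 and 11.4-fold at dpc16.

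In limma on log2(FPKM + 1), Slco1b2 was lower in zone 1 than in zone 3 by −2.16 ± 0.38 (SE) in NP (adjusted p = 0.0015), −2.16 ± 0.38 at dpc8 (adjusted p = 0.00157) and −3.43 ± 0.38 at dpc16 (adjusted p = 2.75e-06). Without the 6 libraries with Y-linked RNA these differences were −2.10, −1.89 and −3.76 and still passed. Without them Slco1b2 was also called lower in zone 2 than in zone 3 in NP (−1.35, adjusted p = 0.00671, against 0.344 with them) and lower in zone 1 than in zone 2 at dpc16 (−1.95, adjusted p = 0.000764, against 0.150 with them). Zone 2 was also below zone 3 at dpc16, by −1.88 ± 0.38 (adjusted p = 0.0167), a call that 0.317% of all genes shared in this direction. It did not hold without dpc16 zone 2 number 2 or 3, nor without dpc16 zone 3 number 1 or 2, with values from −1.47 to −2.24 over all alternatives.

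Slco1a1 encodes OATP1A1, a carrier of conjugated steroids and bile acids that is known for higher levels in male than in female liver. Its NP values were 0.0916, 5.80 and 2.70 FPKM in zone 1, 2.19, 36.7 and 25.8 FPKM in zone 2 and 12.6, 83.1 and 123.9 FPKM in zone 3. Library number 1 was the lowest in each NP zone, and zones 1 and 2 overlapped through it, as did zones 2 and 3, while zones 1 and 3 did not. At dpc8 the values were 0.569, 1.75 and 1.97 FPKM in zone 1, 22.3, 9.47 and 21.5 FPKM in zone 2 and 91.7, 48.5 and 83.6 FPKM in zone 3. At dpc16 they were 1.31, 1.08 and 1.50 FPKM in zone 1, 24.4, 13.3 and 11.8 FPKM in zone 2 and 79.6, 48.0 and 54.0 FPKM in zone 3. In pregnancy the 3 zones of this gene were separated in every library. In the order of its 9 group means the 3 zone 1 groups came lowest, then the 3 of zone 2 and the 3 of zone 3, and neighbouring groups of 1 zone overlapped whatever their stage.

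Slco1a1 was lower in zone 1 than in zone 3 by −4.11 ± 0.79 in NP (adjusted p = 0.00454), −4.96 ± 0.79 at dpc8 (adjusted p = 0.000527) and −4.71 ± 0.79 at dpc16 (adjusted p = 0.000798). These values understate the ratio of the means, which was 25.6-fold in NP, 52.1-fold at dpc8 and 46.6-fold at dpc16, because the zone 1 levels are near the constant of 1 added before the log. The NP call was lost without NP zone 1 number 1, without NP zone 3 number 3, and without the 6 libraries with Y-linked RNA, where the difference was −3.04 (adjusted p = 0.165). The dpc8 and dpc16 calls held without those libraries, at −4.67 and −4.78. At dpc16, where libraries of 1 number deviated together across zones, a fit with the replicate block also called Slco1a1 lower in zone 1 than in zone 2 (−2.86 ± 0.35, adjusted p = 0.000564, against 0.278 without the block) and lower in zone 2 than in zone 3 (−1.85 ± 0.35, adjusted p = 0.0145, against 1 without it).

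With Slco1b2 and Slco1a1, 2 of the 6 members were called lower in zone 1 than in zone 3 at each stage. Of all 12952 genes tested, 0.811% were called in this direction in NP, 0.926% at dpc8 and 0.772% at dpc16.

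Slc22a7 had the opposite gradient, with its highest levels near the portal vein. Its product OAT2 exchanges organic anions and is known to carry glutamate, prostaglandins and nucleotides. In NP the values were 2.72, 27.8 and 37.7 FPKM in zone 1, 2.73, 9.56 and 16.6 FPKM in zone 2 and 0.923, 1.35 and 3.49 FPKM in zone 3. Library number 1 was again the lowest in each NP zone and fell within the zone 3 range in zones 1 and 2. At dpc8 the values were 17.7, 34.9 and 17.7 FPKM in zone 1, 21.5, 6.52 and 13.6 FPKM in zone 2 and 4.63, 2.69 and 2.41 FPKM in zone 3. At dpc16 they were 15.1, 13.8 and 57.0 FPKM in zone 1, 12.5, 11.5 and 7.21 FPKM in zone 2 and 3.82, 2.32 and 4.38 FPKM in zone 3. In both pregnant stages zones 1 and 2 lay above zone 3 in every library.

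The differences of Slc22a7 between zones 1 and 3 were 2.56 ± 0.70 in NP, 2.49 ± 0.70 at dpc8 and 2.44 ± 0.70 at dpc16, and with adjusted p-values of 0.0895, 0.083 and 0.0997 none passed the threshold. Without the 6 libraries with Y-linked RNA the differences were 3.51, 2.65 and 2.58 with adjusted p-values of 0.00889, 0.0276 and 0.0307, and all 3 passed. The dpc16 difference also passed with the replicate block (adjusted p = 0.0154). A comparison over the mean of the 3 stages, added after these values were seen, gave 2.50 ± 0.40 for Slc22a7 (adjusted p = 0.000237), and it was called in all 10 other settings and all 18 fits that left out 1 library, with values from 2.28 to 2.91. In that comparison 2.70% of all genes were called higher in zone 1.

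The same comparison over stages gave −2.58 ± 0.22 for Slco1b2 (adjusted p = 1.35e-08) and −4.60 ± 0.45 for Slco1a1 (adjusted p = 2.22e-07), among 2.89% of all genes called lower in zone 1 than in zone 3. Zone 1 was also below zone 2 over the mean of the stages, by −1.25 ± 0.22 for Slco1b2 (adjusted p = 0.00264) and −2.69 ± 0.45 for Slco1a1 (adjusted p = 0.00189), a call shared by 0.409% of all genes in this direction. For Slc22a7 the difference of zone 1 from zone 2 was 0.92 ± 0.40 (adjusted p = 0.684). Zone 2 differed from zone 3 over the mean of the stages by −1.34 ± 0.22 for Slco1b2 (adjusted p = 0.000649), −1.91 ± 0.45 for Slco1a1 (adjusted p = 0.026) and 1.58 ± 0.40 for Slc22a7 (adjusted p = 0.0415), beside 1.07% of all genes called lower and 0.811% called higher. The Slco1b2 call held in every fit, but that of Slco1a1 held in 11 of 18 and that of Slc22a7 in 4 of 18 fits with 1 library removed, and the Slco1a1 call was lost without the 6 libraries with Y-linked RNA (−1.63, adjusted p = 0.120). It was also lost with 0.1 added before the log and when only the groups compared were fitted. The Slc22a7 call was lost with quantile normalization and with no filter on low values.

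Slc10a1, Slco1a4 and Slco2b1 were not called between any zones at any stage. Over the mean of the stages, zone 1 differed from zone 3 by 0.06 for Slc10a1 (95% interval −0.43 to 0.54), by −0.08 for Slco1a4 (−0.79 to 0.63) and by −0.08 for Slco2b1 (−0.47 to 0.31). Differences of the size seen in Slco1b2 lie outside these intervals. At dpc16 the Slc10a1 values of zone 1 all lay above those of zones 2 and 3, with a difference from zone 3 of 0.56 ± 0.40 that did not pass (adjusted p = 0.906).

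**Figure D1:**
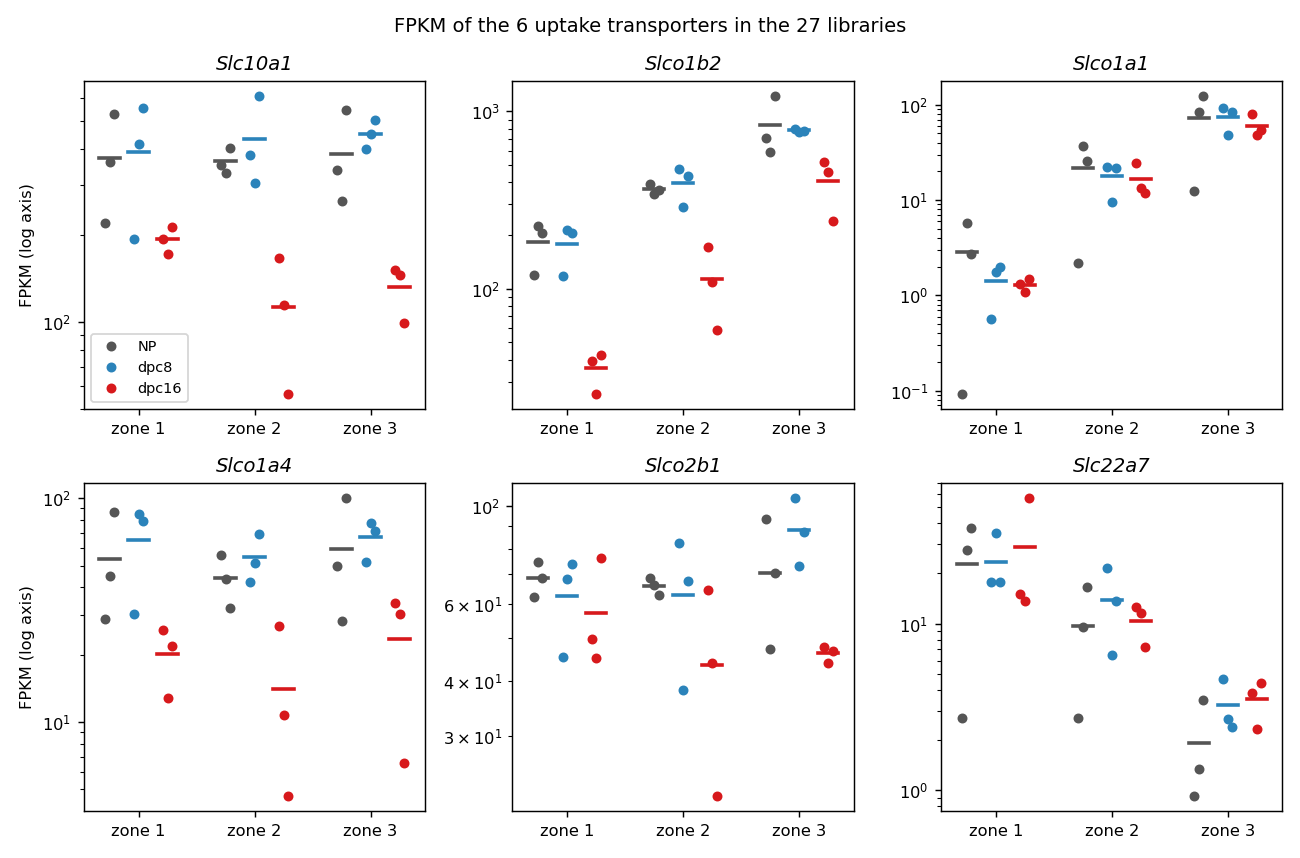
Points are the FPKM of single libraries on a log axis for each of the 6 genes, grouped by zone and coloured by stage, and bars are the mean of 3 libraries. Slco1b2 and Slco1a1 rise from zone 1 to zone 3 and Slc22a7 runs the other way, while the dpc16 points of Slc10a1, Slco1b2 and Slco1a4 sit low.

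**Figure D2:**
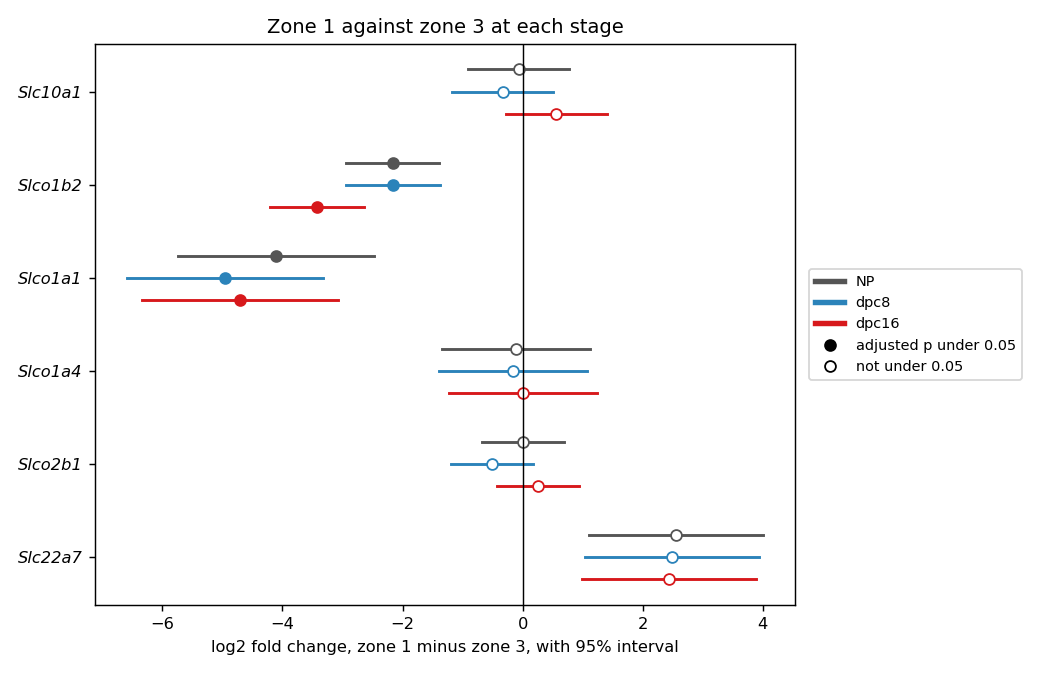
Log2 fold change of zone 1 minus zone 3 with its 95% interval for each gene and stage from limma, where filled points passed an adjusted p of 0.05. Slco1b2 (−2.16 to −3.43) and Slco1a1 (−4.11 to −4.96) are filled at all 3 stages, and Slc22a7 lies between 2.44 and 2.56 with open points.

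The stage comparisons address how RNA of the uptake carriers differs in mid and late pregnancy. At dpc8 no member was called against NP in any zone, with differences between −0.37 for Slco1a1 in zone 1 and 0.61 for Slc22a7 in zone 2. Over the mean of the zones limma called 0 of the 6 members, and 0 had an unadjusted p under 0.05, beside 0.108% of all genes called in either direction and 792 of all 12952 genes at that unadjusted limit. The 95% intervals of that comparison were −0.31 to 0.66 for Slc10a1, −0.44 to 0.45 for Slco1b2 and −0.37 to 0.42 for Slco2b1, and wider for Slco1a4 (−0.40 to 1.02), Slco1a1 (−0.82 to 1.07) and Slc22a7 (−0.25 to 1.42).

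At dpc16 3 members were lower than in NP over the mean of the zones: Slco1b2 by −1.73 ± 0.22 (adjusted p = 1.04e-05), Slco1a4 by −1.50 ± 0.34 (adjusted p = 0.00514) and Slc10a1 by −1.38 ± 0.23 (adjusted p = 0.000341). In this comparison 6.15% of all genes were called lower. The mean of the zones fell from 464 to 185 FPKM for Slco1b2, from 371 to 146 FPKM for Slc10a1 and from 52.3 to 19.3 FPKM for Slco1a4. Each of the 3 calls held in all 10 other settings and all 18 fits that left out 1 library, including the setting without the 6 libraries with Y-linked RNA, which gave −1.65, −1.35 and −1.36 for Slco1b2, Slco1a4 and Slc10a1. The hepatocyte markers had a median log2 level of 12.4 at dpc16 against 11.6 in NP. In bulk RNA, fewer hepatocytes in a sample and less RNA of a gene in each hepatocyte cannot be told apart.

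For Slc10a1, the NP libraries gave 222, 361 and 529 FPKM in zone 1, 352, 329 and 403 FPKM in zone 2 and 337, 263 and 546 FPKM in zone 3. At dpc8 they gave 194, 417 and 554 FPKM in zone 1, 379.6, 303 and 610.5 FPKM in zone 2 and 398, 450.0 and 502 FPKM in zone 3. At dpc16 they gave 194, 173 and 215 FPKM in zone 1, 167, 115 and 56.1 FPKM in zone 2 and 152, 146 and 99.3 FPKM in zone 3. All 9 dpc16 libraries were below all 9 NP libraries, and the 3 dpc16 groups formed the bottom of the order of its group means, while the 6 NP and dpc8 groups overlapped with their neighbours in that order. By zone, Slc10a1 at dpc16 differed from NP by −0.85 ± 0.40 in zone 1 (adjusted p = 0.444), −1.80 ± 0.40 in zone 2 (adjusted p = 0.0144) and −1.48 ± 0.40 in zone 3 (adjusted p = 0.0732). Only zone 2 passed, and it did not pass without dpc16 zone 2 number 3 or without NP zone 2 number 3. Without the 6 libraries with Y-linked RNA, all 3 zones passed, at −1.18, −1.37 and −1.52 (adjusted p = 0.016, 0.00358 and 0.00476).

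Slco1b2 at dpc16 was below NP by −2.32 ± 0.38 in zone 1 (adjusted p = 0.00119) and −1.81 ± 0.38 in zone 2 (adjusted p = 0.00809), with ratios of the means of 5.17 and 3.21. In zone 3 the difference was −1.06 ± 0.38 (adjusted p = 0.211), although the 3 dpc16 values lay below the 3 NP values there too. The zone 2 call was lost without dpc16 zone 2 number 3, and the zone 1 call held in each fit. The dpc16 zone 1 group was the lowest of the 9 and overlapped with none, and the dpc16 groups of zones 2 and 3 overlapped in level with the NP groups of zones 1 and 2. Whether the fall of Slco1b2 differed between zones was tested as an interaction, and the difference between zone 1 and zone 3 was −1.26 (95% interval −2.36 to −0.16), which did not pass (adjusted p = 0.993). Limma called 0 members in this interaction, and 0.0540% of all genes. At an unadjusted p under 0.05 there were 1 of the 6 members and 409 of all 12952 genes.

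Slco1a4 encodes OATP1A4, which carries bile acids, cardiac glycosides and other organic anions. Its NP values were 28.9, 44.8 and 87.2 FPKM in zone 1, 55.9, 43.5 and 32.3 FPKM in zone 2 and 49.8, 28.1 and 100.5 FPKM in zone 3. The dpc8 values were 30.5, 84.7 and 79.3 FPKM in zone 1, 42.4, 51.6 and 69.4 FPKM in zone 2 and 51.9, 77.2 and 71.5 FPKM in zone 3. At dpc16 they were 25.8, 12.7 and 21.9 FPKM in zone 1, 26.7, 10.7 and 4.67 FPKM in zone 2 and 33.8, 30.3 and 6.57 FPKM in zone 3. The dpc16 values lay below those of NP without overlap in zones 1 and 2, and overlapped with NP in zone 3. No single zone passed, with differences from NP of −1.28 ± 0.59, −1.84 ± 0.59 and −1.40 ± 0.59 in zones 1 to 3 (adjusted p = 0.426, 0.104 and 0.337). The lowest values in zones 2 and 3 are those of the 2 dpc16 libraries with Y-linked RNA, and the differences without the 6 libraries with Y-linked RNA were −1.64, −1.28 and −1.12, of which zone 1 passed (adjusted p = 0.0404).

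Counting the calls by zone at dpc16 against NP, 1 of 6 members was lower in zone 1, 2 in zone 2 and 0 in zone 3. An unadjusted p under 0.05 was reached by 3, 4 and 3 of the 6 in zones 1 to 3, and by 1424, 2150 and 1494 of all 12952 genes. Of all genes, limma called 0.371%, 1.64% and 0.571% lower in zones 1 to 3. The same number of members was called lower in dpc16 than in dpc8 in zone 1 (Slco1b2, −2.28 ± 0.38, adjusted p = 0.00144) and in zone 2 (Slc10a1, −1.998 ± 0.40, adjusted p = 0.0104, and Slco1b2, −1.89 ± 0.38, adjusted p = 0.00925), and 1 in zone 3 (Slc10a1, −1.77 ± 0.40, adjusted p = 0.0237), beside 0.741%, 0.803% and 0.788% of all genes. The Slc10a1 call in zone 3 held in 0 of the 6 fits with 1 library removed, where its values ran from −1.55 to −2.03 over all alternatives. In zone 2 neither the Slc10a1 nor the Slco1b2 call held without dpc8 zone 2 number 3, and that of Slco1b2 was also lost without dpc8 zone 2 number 1. Over the mean of the zones, dpc16 was below dpc8 by −1.55 ± 0.23 for Slc10a1 (adjusted p = 0.000105), −1.81 ± 0.34 for Slco1a4 (adjusted p = 0.00117) and −1.73 ± 0.22 for Slco1b2 (adjusted p = 1.19e-05), beside 5.69% of all genes. Without the 6 libraries with Y-linked RNA, dpc16 was also called below dpc8 in zone 1 for Slc10a1 (−1.31, adjusted p = 0.00563, against 0.343 with them) and for Slco1a4 (−2.03, adjusted p = 0.00813, against 0.223 with them). The comparison with dpc8 shares its dpc16 libraries with that against NP, so that the 2 are not independent.

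Slco1a1, Slc22a7 and Slco2b1 were not called between stages in the fit with 9 group means and equal weights, and the result for Slco2b1 changed with the setting. Slco2b1 encodes OATP2B1, a carrier of steroid sulfates that is also made in many tissues other than liver. Its NP values were 62.0, 74.8 and 68.7 FPKM in zone 1, 68.6, 66.1 and 62.8 FPKM in zone 2 and 93.3, 47.4 and 70.3 FPKM in zone 3. At dpc8 they were 45.3, 68.2 and 73.9 FPKM in zone 1, 82.3, 38.1 and 67.7 FPKM in zone 2 and 104.4, 73.0 and 87.3 FPKM in zone 3. At dpc16 they were 49.8, 45.3 and 76.1 FPKM in zone 1, 64.3, 44.1 and 21.9 FPKM in zone 2 and 47.8, 44.0 and 46.9 FPKM in zone 3. Its 9 groups overlapped with each neighbour in the order of their means, which ran from 43.4 to 88.2 FPKM, the narrowest range of the 6 genes as a ratio. The dpc16 difference from NP of Slco2b1 over the mean of the zones was −0.52 ± 0.19 (adjusted p = 0.0844), and it passed without the 6 libraries with Y-linked RNA (−0.49, adjusted p = 0.02). Against dpc8 the difference of Slco2b1 was −0.54 over the mean of the zones (adjusted p = 0.0719) and −0.90 in zone 3 (adjusted p = 0.208), and without those libraries both passed, at −0.58 and −0.91 (adjusted p = 0.00652 and 0.033). With all libraries, the difference of Slco2b1 from NP over the mean of the zones also passed with FPKM rescaled to a common sum (−0.91, adjusted p = 0.000168), with array weights (−0.51, adjusted p = 0.00987) and with a connective tissue covariate (−0.58, adjusted p = 0.0117), and the same 3 settings called it against dpc8. Of all 12952 genes, 797 were called lower than NP in the fit with equal weights. These settings called 2981, 1406 and 1300 lower in that order, and leaving out the 6 libraries called 1042. With the common sum, the median difference of all genes was −0.33 from NP and −0.38 from dpc8.

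The dpc16 difference of Slco1a1 from NP over the mean of the zones was −0.01, with a 95% interval of −0.95 to 0.94. The intervals of Slco1b2 (−2.18 to −1.28) and Slc10a1 (−1.86 to −0.89) therefore lie wholly and mostly below that of Slco1a1, but the difference between genes was not tested. Slc22a7 had 0.54 ± 0.40 (95% interval −0.30 to 1.37, adjusted p = 0.473).

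**Figure D3:**
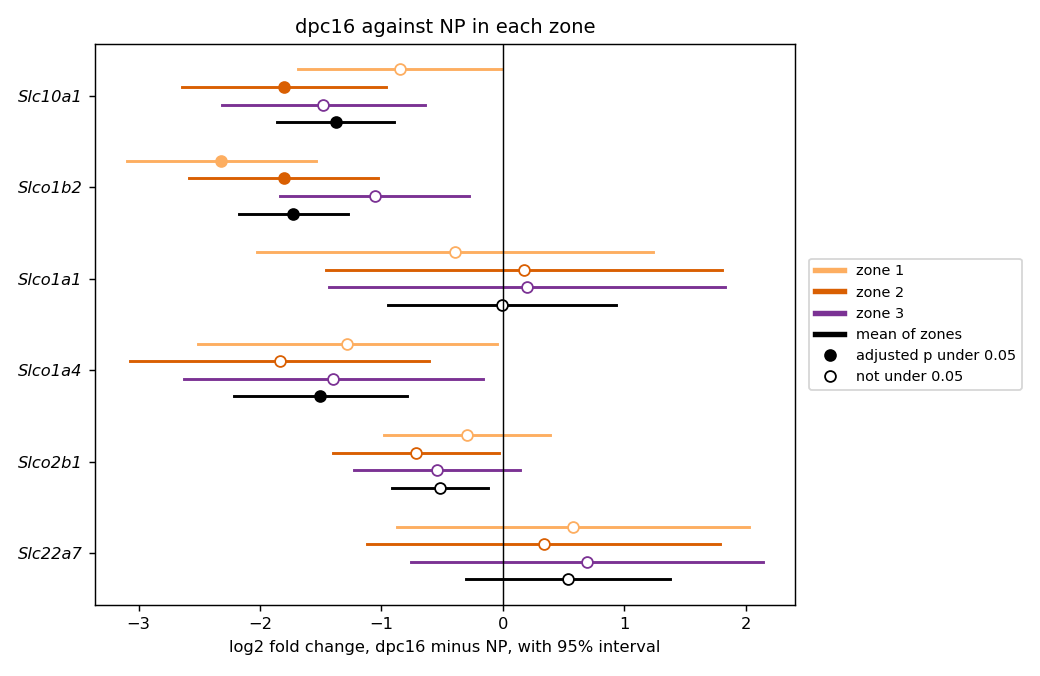
Log2 fold change of dpc16 minus NP with its 95% interval in each zone and over the mean of the zones, from limma, with filled points where the adjusted p was under 0.05. Over the mean of the zones Slco1b2 (−1.73), Slco1a4 (−1.50) and Slc10a1 (−1.38) are filled, and the interval of Slco1a1 is centred near 0.

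FPKM is scaled to transcript length, so the levels of the 6 genes can be set side by side. In NP zone 1, Slc10a1 made up 52.7% of their summed mean FPKM and Slco1b2 26.2%, whereas in NP zone 3 Slco1b2 made up 58.9% and Slc10a1 26.8%. At dpc16 the share of Slco1b2 was 10.6% in zone 1 and 60.3% in zone 3, and that of Slco2b1 in zone 1 was 16.9% against 9.75% in NP. The sum of the 6 genes was 703 ± 251 FPKM (SD, n = 3) in NP zone 1, 869 ± 37.1 in zone 2 and 1428 ± 560.5 in zone 3. At dpc16 the sums were 337 ± 71.9, 311 ± 154 and 671 ± 199 FPKM, below every NP library of the same zone. These sums are descriptions and were not tested.

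**Figure D4:**
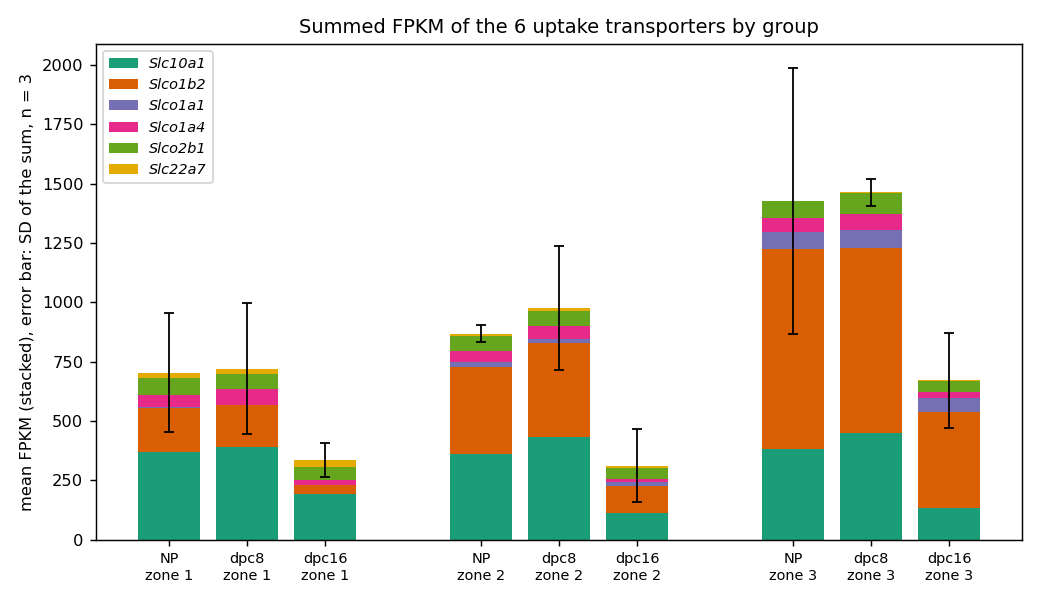
Stacked bars give the mean FPKM of the 6 genes in each group on a linear axis from 0, with the SD of the sum over 3 libraries. Slc10a1 takes the largest share in zone 1 and Slco1b2 in zone 3, and the dpc16 bars (311 to 671 FPKM) are shorter than the NP bars (703 to 1428 FPKM).

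The pattern of a member over the 9 group means was compared with that of all other tested genes by Pearson's r. For Slco1b2 the most similar genes were Rnase4 (r = 0.994), Ang (0.993), which encodes the ribonuclease angiogenin, and Cyp7a1 (0.989), the rate-limiting enzyme of bile acid synthesis. For Slco1a1 they were Mup9 (0.986), a major urinary protein gene, Gulo (0.984), of vitamin C synthesis, and Esrrg (0.983), an orphan nuclear receptor. For Slc10a1 they were Olfml1 (0.995), Gcat (0.99) and Ifitm3 (0.988), and for Slco1a4 they were Selenbp1 (0.988), Ggt6 (0.986) and Acss2 (0.985). For Slco2b1 they were Isoc1 (0.988), Card10 (0.973) and Sesn3 (0.97), and for Slc22a7 they were Tle4 (0.988), Dcbld1 (0.978) and Ctnnbip1 (0.971). Among the members, r was 0.973 for Slc10a1 and Slco1a4, 0.908 for Slc10a1 and Slco2b1, 0.884 for Slco1a4 and Slco2b1, 0.783 for Slco1a1 and Slco1b2, −0.928 for Slco1a1 and Slc22a7 and −0.805 for Slco1b2 and Slc22a7. Over the 27 libraries these 6 values were 0.924, 0.772, 0.694, 0.735, −0.52 and −0.55. The 9 means share their libraries across genes, and these values describe likeness only.

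The genes around uptake were followed in 4 lists. Of 26 other organic ion uptake genes, 19 were tested, and at dpc16 0 were higher and 6 lower than in NP over the mean of the zones, with a list median of −0.42 against −0.01 for all genes. The lower ones included Slc22a26 (−1.30 ± 0.18, adjusted p = 4.06e-05), Slc22a15 (−1.14 ± 0.19, adjusted p = 0.00032), Slc22a29 (−0.83 ± 0.18, adjusted p = 0.00314) and Slc10a5 (−0.81 ± 0.19, adjusted p = 0.00589), all carrier genes of the Slc22 and Slc10 families. In this comparison 6.15% of all genes were called lower and 5.65% higher. Between zones, Slc22a3, which encodes the cation carrier OCT3, was lower in zone 1 than in zone 3 at each stage, by −2.27, −2.11 and −2.92 in NP, dpc8 and dpc16 (adjusted p = 0.00112, 0.00263 and 3.52e-05).

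Of 14 tested efflux carriers, which move bile acids and conjugates out of the hepatocyte, 3 were lower and 1 higher at dpc16, with a list median of −0.33, and 5 were lower and 0 higher without the 6 libraries with Y-linked RNA. Of all 12952 genes, 6.15% were called lower and 5.65% higher, and without those libraries 1042 genes were lower and 1106 higher. Abcc3, which encodes the sinusoidal exporter MRP3, fell by 3.47 on the log2 scale (SE 0.30, adjusted p = 4.65e-08), from 82.0 ± 33.5 to 8.21 ± 5.46 FPKM in zone 3 and from 69.2 ± 9.13 to 8.50 ± 0.93 FPKM in zone 1. Abcc6 (−0.94) and Slc47a1 (−0.61) were also lower, and Abcg2 was higher by 0.45, a call that was lost under both other scalings. Abcb11, the canalicular bile salt export pump gene, had −0.75 ± 0.26 and did not pass (adjusted p = 0.0613). Slc51b, which encodes a subunit of the basolateral bile acid exporter, was higher in zone 1 than in zone 3 in NP (1.35 ± 0.30, adjusted p = 0.0188) and at dpc8 (1.22 ± 0.30, adjusted p = 0.0358), and not called at dpc16. Both calls of Slc51b were lost with quantile normalization (1.15 and 0.98, adjusted p = 0.194 and 0.277). The interaction of the dpc16 change from NP between zones 1 and 3 called 0 of the 14 efflux carriers, and 0.0540% of all genes.

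At dpc16 against NP over the mean of the zones, 6.15% of all genes were called lower and 5.65% higher. Without the 6 libraries with Y-linked RNA, 1042 of all 12952 genes were called lower and 1106 higher. Of 16 genes of bile acid synthesis and conjugation, 4 were lower and 0 higher at dpc16, with a list median of −0.11, and 6 were lower and 1 higher without the 6 libraries with Y-linked RNA. The 4 were Cyp27a1 (−1.05 ± 0.20, adjusted p = 0.00123), the first enzyme of the alternative pathway, Cyp7a1 (−1.86 ± 0.44, adjusted p = 0.00645), Baat (−0.996 ± 0.23, adjusted p = 0.00645), which conjugates bile acids, and Hsd3b7 (−1.12 ± 0.35, adjusted p = 0.0404), whose call was lost without the 6 libraries with Y-linked RNA (adjusted p = 0.0502). Cyp7a1 stood at 50.3 ± 8.20 FPKM in dpc16 zone 3 and 5.49 ± 6.41 FPKM in dpc16 zone 1, a difference of −3.43 ± 0.76 (adjusted p = 0.0147), and it was not called between these zones in NP or at dpc8. The interaction of the dpc16 change from NP between zones 1 and 3 called 0 of the 16 genes, and 0.0540% of all genes. Cyp7b1 was lower in zone 1 than in zone 3 at all 3 stages (−2.35, −2.39 and −2.14), but its NP call was lost without the 6 libraries with Y-linked RNA (adjusted p = 0.106) and its dpc16 call with quantile normalization (adjusted p = 0.101).

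Of 26 regulators and hormone receptors, 4 were higher and 5 lower at dpc16, and the list median was −0.22, or −0.02 without the 6 libraries with Y-linked RNA. Of all genes, 5.65% were called higher and 6.15% lower in this comparison over the mean of the zones. The growth hormone receptor gene Ghr was higher by 2.93 ± 0.19 (adjusted p = 7.91e-10), and the prolactin receptor gene Prlr by 2.66 ± 0.22 (adjusted p = 1.92e-08), with Prlr at 211 ± 76.8 FPKM in NP zone 1 and 2147 ± 95.5 FPKM in dpc16 zone 1. Socs2, which encodes a feedback inhibitor of these receptors, was higher by 0.90, and Nfe2l2, the NRF2 gene, by 0.35, a value that turned to −0.03 with FPKM rescaled to a common sum. Nr1h4, which encodes the bile acid receptor FXR, was lower by −0.79 ± 0.18 (adjusted p = 0.00551), and Fgfr4, Stat5b, Foxa2 and Bcl6 by −0.80, −0.67, −0.77 and −1.37. The calls of Fgfr4, Foxa2 and Nfe2l2 were lost with quantile normalization (adjusted p = 0.0876, 0.0553 and 0.0701). Bcl6 stood at 1.94 to 17.9 FPKM in NP zone 1 and its call was lost without the 6 libraries with Y-linked RNA. Between zones, Ahr, the dioxin receptor gene, was lower in zone 1 than in zone 3 at all 3 stages (−2.34, −2.13 and −3.01, adjusted p = 3.57e-05, 0.00015 and 8.05e-07). At dpc8, limma called 0 of the 75 tested genes of the 4 lists against NP over the mean of the zones, with 7 at an unadjusted p under 0.05, as 792 of all 12952 genes had, and without the 6 libraries with Y-linked RNA 1 efflux gene was lower and 1 regulator higher. Without those libraries 12 of all genes were called lower and 31 higher.

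**Figure D5:**
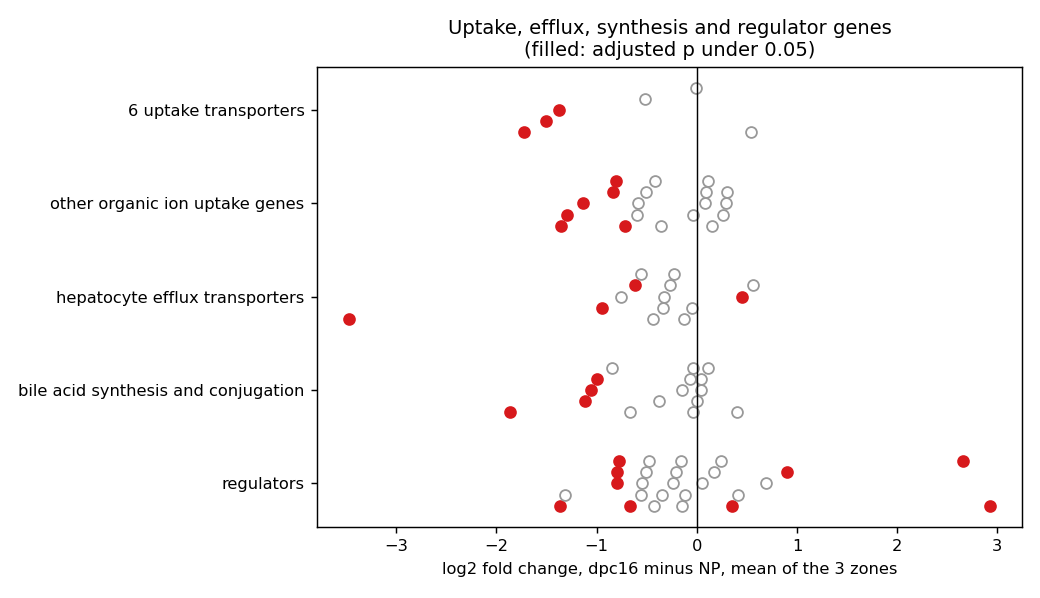
Each point is the log2 fold change of dpc16 minus NP over the mean of the zones for 1 gene, by list, and filled points had an adjusted p under 0.05. The 3 called uptake transporters lie from −1.38 to −1.73, Abcc3 at −3.47 stands furthest to the left, and Ghr and Prlr at 2.93 and 2.66 furthest to the right.

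Because Slco1a1 is known as a male-predominant gene in liver, lists of genes with sex-dependent liver levels were also followed. Of 13 tested male-predominant genes, 2 were higher and 4 lower at dpc16 than in NP, among them Nudt7 (−2.45 ± 0.29, adjusted p = 5.22e-06), Mup20 (−2.09 ± 0.33, adjusted p = 0.00015) and Serpina1e (2.35 ± 0.53, adjusted p = 0.00447). Of 18 female-predominant genes, 8 were higher and 3 lower, among them A1bg (3.16 ± 0.33, adjusted p = 8.31e-07), Cyp3a44 (2.66 ± 0.30, adjusted p = 1.83e-06) and Cyp2b13 (−3.75 ± 0.26, adjusted p = 2.38e-09). Of all genes, 5.65% were called higher and 6.15% lower in this comparison. Slco1a1 itself was not called.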

How the data were processed

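Per the labels and the study's methods, zones of acetone-fixed liver cryosections were cut out by laser microdissection, and ribosomal RNA was removed before library preparation. The authors trimmed single-end reads with cutadapt 1.18, aligned them to mm10 with HISAT2 2.1.0 and deposited FPKM of protein-coding genes from Cuffdiff in Cufflinks 2.2.1. Here limma 3.58.1 (R 4.3.3) was fitted to log2(FPKM + 1) with 9 group means, an intensity trend and robust variances, over 12952 genes with at least 1 FPKM in at least 3 libraries. A total of 30 comparisons were made, each with Benjamini-Hochberg adjustment and a threshold of 0.05. FPKM carries no counts, so no count model was used. The script was tested on simulated data. The members and gene lists were chosen with earlier results of these data known, and the zone comparisons over the mean of the stages were added after seeing the data. List genes named were those called, at most 4 per list and direction by adjusted p, and Fgfr4 and Abcb11 were added after their values were seen. Libraries of 1 number deviated together at dpc16, where all 9 correlations of their deviations exceeded 0.1 (0.263 to 0.863), while 4 of 9 did at NP and 5 of 9 at dpc8, so that a fit with a replicate block of stage and number was an alternative, which called 16 member differences between zones. The dpc16 libraries with Y-linked RNA, in zones 2 and 3, both carry number 3, and their correlation was the highest (0.863). The source of the shared deviation was not tested. Gene positions came from GENCODE vM21 on mm10.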

Additional observations from a re-analysis of the deposited data

How the results depend on the processing

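Of 616 alternative values of the 28 called member differences, 564 kept the call and its direction, 52 did not pass and 0 reversed. Between zones 7 member differences were called, against 11 with FPKM rescaled to a common sum, 12 with array weights, 16 with the replicate block of stage and number, 11 with a connective tissue covariate and 11 without the 6 libraries with Y-linked RNA. Counts over all 12952 genes rose in these settings too. Those lower in zone 1 than in zone 3 at dpc16 numbered 100 in the main fit. In these settings they numbered 147, 228, 151, 154 and 163 in that order. At NP and dpc8, where the numbers did not pair all libraries, that replicate block called Slc22a7 between zones 1 and 3 (adjusted p = 0.0125 and 0.0133), Slco1a1 between zones 1 and 2 (0.0045 and 0.000411) and Slco1a1 between zones 2 and 3 (0.0194 and 0.00878). Leaving out 1 library gave 6 to 9. Between stages within a zone 7 were called, against 22 with the common sum, 16 with array weights, 16 with the connective tissue covariate, 13 without those 6 libraries and 3 when only the groups compared were fitted, which leaves fewer samples for the spread. Counts over all 12952 genes moved the same way. Those lower at dpc16 than in NP in zone 2 numbered 213 in the main fit, and 1036, 526, 483, 245 and 12 in these settings in that order. Leaving out 1 library gave 5 to 9 member differences. Over the mean of the zones 6 were called, against 8 with the common sum, array weights, the connective tissue covariate or without those 6 libraries, where both falls of Slco2b1 were added, and 6 to 8 without 1 library. No change of a member in pregnancy was called as different between zones in any setting, and 0 without any 1 library. The cause of these differences in count was not tested. With the common sum the median difference of all genes between dpc16 and NP was −0.57 in zone 1, −0.20 in zone 2 and −0.21 in zone 3, so that calls at that scaling are relative to it. Fitting only the groups compared gave 5 calls between zones and lost the NP zone calls of Slco1b2 and Slco1a1 and the dpc16 call of Slco1b2 between zones 2 and 3. With 3 libraries a group and depth only estimated, a call that missed the threshold does not show that levels were alike.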
